A study of Homo sapiens with 16 samples.

Results

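The 8 genes CLK1, CLK2, CLK3, CLK4, CCNL1, CCNL2, OGT and OGA were taken by name from a deposited expression table of 24878 genes, because their mRNAs are known for detained introns. All 8 passed the filter on low values, a level of at least 1 CPM (read counts scaled for library size, with the authors' normalization) in at least 2 of the 16 libraries, which 16693 genes passed. CLK1 to CLK4 are dual-specificity kinases that phosphorylate SR proteins, the serine- and arginine-rich factors that guide splicing. CCNL1 and CCNL2 encode cyclins L1 and L2, which carry a domain rich in arginine and serine and bind the CDK11 kinases. OGT places O-linked N-acetylglucosamine on serine and threonine residues of nuclear and cytosolic proteins, and OGA removes it.

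A detained intron is left in an otherwise spliced and polyadenylated transcript, which stays in the nucleus until the intron is removed or the RNA is degraded. Such transcripts can act as a store: inhibition of the CLK kinases promotes splicing of the introns around exon 4 of CLK1, and splicing of the detained intron of OGT responds to the O-GlcNAc state of the cell. A pool of one gene's polyadenylated RNA can thus be divided between nucleus and cytosol. The deposited table has 1 value per gene, so spliced and intron-holding RNA of a gene cannot be told apart in it.

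The libraries come from an RNA proximity labelling experiment in HEK293T cells, a transformed human embryonic kidney line. BS2 is an esterase that unmasks the probe AC-2 where it is located, and RNA labelled there is coupled to biotin, pulled down, captured by poly(A) and sequenced. AC-2 was added to all cells, those without a plasmid included, at 50 µM, and labelling was stopped 3 min later with PMSF at 1 mM. The 12 pull-down libraries were 3 from non-transfected cells, which the labels call WT, and 2 with cytosolic, 3 with nuclear, 2 with mitochondrial and 2 with nucleolar BS2, the last carrying a NIK3x tag. The 4 inputs, RNA not passed through the pull-down, were 1 library each from non-transfected, cytosolic, nuclear and mitochondrial BS2 cells. A nucleolar input was not used here. Each construct was expressed transiently for 24 h after lipid transfection. No transfected control without BS2 was used here, so transfection, BS2 itself and labelling by BS2 cannot be told apart in a comparison with non-transfected cells. The number of transfected cells and the labelled RNA per cell cannot be told apart either.

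The estimated depth was 6.34 to 20.0 M reads (M for mega) a library, so that 1 read was worth 0.0541 to 0.154 CPM. The lowest level of the 8 genes in any library was 11.1 CPM, for CLK4 in the non-transfected input, about 122 reads with a counting error of 9.05%. Counting error is the only error this covers. All 6 HEK293T markers were present, at 3.15 to 489 CPM, and the 4 markers of blood cells and liver reached at most 1.94 CPM. The 13 mitochondrially encoded mRNAs made up 5.45% of the mitochondrial pull-downs, 2.03% of the non-transfected, 0.888% of the cytosolic, 0.876% of the nuclear and 2.94% of the nucleolar ones. MALAT1 and NEAT1, long RNAs that stay in the nucleus, summed to means of 1796 CPM in nuclear, 1516 in mitochondrial, 1229 in nucleolar, 598 in non-transfected and 518 CPM in cytosolic pull-downs. The nuclear RNAs were thus also high in the mitochondrial pull-downs.

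Exon 4 of CLK1 and CLK4 lies between the introns known to be detained, and it is shown with its counterparts in CLK3 and CLK2, in capitals with 15 intron bases on either side. The sequences were read 5′ to 3′ on the coding strand of GRCh38, with exon borders from GENCODE 29.
CLK1 exon 4 (chr2:200860110-200860230, minus strand): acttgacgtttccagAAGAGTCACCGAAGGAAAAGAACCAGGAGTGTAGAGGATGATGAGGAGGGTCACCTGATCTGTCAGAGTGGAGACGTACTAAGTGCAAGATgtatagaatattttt
CLK4 exon 4 (chr5:178617329-178617449, minus strand): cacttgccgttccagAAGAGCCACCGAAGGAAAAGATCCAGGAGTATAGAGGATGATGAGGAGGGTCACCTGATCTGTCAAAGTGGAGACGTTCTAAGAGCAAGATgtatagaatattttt
CLK3 exon 4 (chr15:74622105-74622231, plus strand): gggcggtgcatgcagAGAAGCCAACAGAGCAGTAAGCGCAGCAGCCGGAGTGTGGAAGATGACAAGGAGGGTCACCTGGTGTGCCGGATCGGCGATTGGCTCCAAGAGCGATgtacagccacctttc
CLK2 exon 4 (chr1:155268693-155268807, minus strand): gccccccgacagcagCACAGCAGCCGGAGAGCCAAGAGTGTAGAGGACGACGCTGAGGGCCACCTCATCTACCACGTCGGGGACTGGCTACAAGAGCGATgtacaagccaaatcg
The exon is 91 bases long in CLK1 and in CLK4, 97 in CLK3 and 85 in CLK2, and each length leaves a remainder of 1 when divided by 3, so that skipping it shifts the reading frame. CLK1 and CLK4 are identical at 93.4% of the aligned positions of this exon, and the other pairs at 64.3% to 67.7%. How the authors' counting divided reads that match both CLK1 and CLK4 is not given in the sources used here.

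The introns around this exon are drawn as retained in the annotation of CLK1, CLK3 and CLK4 but not in that of CLK2. Transcripts of the type "retained intron" are 8 of the 15 annotated for CLK1, 7 of 15 for CLK4, 8 of 27 for CLK3 and 0 of 7 for CLK2. In CLK1 they span introns 3 and 4, of 1022 and 378 bases, and also introns 2 and 7. In CLK4 they span introns 3 and 4, of 1121 and 395 bases, and the last pair of introns, and in CLK3 introns 3 and 4, of 1894 and 277 bases. Only a transcript of another type, a processed transcript, spans intron 4 of CLK2, of 348 bases. All these introns lie within the coding region, start with GT and end with AG.

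CCNL1 has the most such transcripts of the 8 genes, 16 of 26, and they span 6 of its 10 introns. Introns 6 and 7 are the shortest of those 6 and are shown in capitals with 15 exon bases on either side. The detained intron of OGT is intron 4, of 3271 bases, and its first and last 30 bases are in capitals.
CCNL1 intron 6 (chr3:157150155-157150296, minus strand): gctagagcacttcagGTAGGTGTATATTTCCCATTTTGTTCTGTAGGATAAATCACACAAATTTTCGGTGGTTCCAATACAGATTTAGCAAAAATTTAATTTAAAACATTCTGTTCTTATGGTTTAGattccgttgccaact
CCNL1 intron 7 (chr3:157149963-157150079, minus strand): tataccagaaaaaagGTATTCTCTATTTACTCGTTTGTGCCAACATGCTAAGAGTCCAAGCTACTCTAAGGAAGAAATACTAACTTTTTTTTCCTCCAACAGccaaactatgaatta
OGT intron 4, start (chrX:71544621-71544665, plus strand): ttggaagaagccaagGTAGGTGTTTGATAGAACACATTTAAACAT
OGT intron 4, end (chrX:71547877-71547921, plus strand): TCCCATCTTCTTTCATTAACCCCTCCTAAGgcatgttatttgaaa
Intron 6 of CCNL1 is 112 bases long and intron 7 is 87. CCNL2 has 9 retained-intron transcripts among 20, but none spans a whole intron of its principal transcript. OGT has 5 among 11, of which 1 spans intron 4, and OGA has 0 among 11. An annotated transcript says nothing of how much intron these libraries hold.

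CLK1 and CLK4 rose with every BS2 construct, and CLK1 was highest with nucleolar BS2. CLK1 (chr2:200853009-200864744) stood at 29.1, 33.9 and 29.8 CPM in the non-transfected pull-downs, 90.0 and 101 CPM in the cytosolic, 172, 155 and 140.2 CPM in the nuclear, 142 and 121 CPM in the mitochondrial, and 192 and 195 CPM in the nucleolar ones. Every library with BS2 lay above every one without it, and the nucleolar libraries lay above all others. Against non-transfected, the log2 change of CLK1 was 1.59 ± 0.106 (SE) with cytosolic, 2.29 ± 0.0945 with nuclear, 2.05 ± 0.106 with mitochondrial and 2.61 ± 0.106 with nucleolar BS2. The adjusted p-values, from limma with Benjamini-Hochberg adjustment over all 16693 genes, were 3.34e-08, 9.50e-11, 2.11e-09 and 6.57e-11. Changes are on the log2(CPM + 1) scale throughout, and these 4 comparisons share the 3 non-transfected libraries.

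CLK4 (chr5:178602664-178630615), whose exon 4 is nearly that of CLK1, had lower levels and the same order of group means. Its levels were 16.2, 19.1 and 19.6 CPM without transfection, 56.0 and 60.1 CPM with cytosolic, 88.9, 79.0 and 59.8 CPM with nuclear, 72.6 and 61.5 CPM with mitochondrial, and 83.0 and 86.5 CPM with nucleolar BS2. The nuclear libraries overlapped with each other BS2 group, and no library with BS2 reached down to the non-transfected ones. Its log2 changes were 1.62 ± 0.142, 1.98 ± 0.127, 1.82 ± 0.142 and 2.16 ± 0.142 in the same order of constructs (limma, adjusted p = 5.31e-07, 8.15e-09, 1.37e-07 and 9.27e-09). The spread of CLK4 over the nuclear libraries, a coefficient of variation of 19.5%, was the widest of any of the 8 genes in any group, and nuclear replicate 3 was the low one.

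CLK3 (chr15:74598500-74645414) rose less. It stood at 20.5, 19.8 and 24.0 CPM in non-transfected, 40.2 and 37.4 CPM in cytosolic, 49.9, 48.1 and 50.3 CPM in nuclear, 41.0 and 39.9 CPM in mitochondrial, and 68.7 and 60.8 CPM in nucleolar pull-downs. The non-transfected libraries were the lowest and the nucleolar the highest, without overlap with another group. The log2 changes against non-transfected were 0.83 ± 0.103, 1.17 ± 0.0921, 0.89 ± 0.103 and 1.55 ± 0.103 for cytosolic, nuclear, mitochondrial and nucleolar BS2 (limma, adjusted p = 1.40e-05, 6.54e-08, 5.74e-06 and 1.04e-08). CLK3 overlaps EDC3 on the opposite strand and has the pseudogene CLK3P2, and whether the counting used strand is not given in the sources used here.

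CLK2 (chr1:155262868-155278491) differed from the other CLK genes in direction. Its levels were 65.9, 64.1 and 73.8 CPM in non-transfected, 46.2 and 49.4 CPM in cytosolic, 82.6, 87.7 and 89.5 CPM in nuclear, 52.3 and 60.4 CPM in mitochondrial, and 70.7 and 82.6 CPM in nucleolar pull-downs. The cytosolic and mitochondrial libraries lay below the non-transfected ones and the nuclear libraries above. The log2 change was 0.35 ± 0.0902 with nuclear BS2 (limma, adjusted p = 0.00353) and -0.50 ± 0.101 with cytosolic BS2 (limma, adjusted p = 0.000909). With mitochondrial BS2 it was -0.27 ± 0.101 (limma, adjusted p = 0.0369), a call that was lost in 5 of the 12 refits without 1 library, for example at -0.16 (limma, adjusted p = 0.307) without mitochondrial replicate 1. With nucleolar BS2 it was 0.17, with a 95% interval of -0.05 to 0.39 (limma, adjusted p = 0.153). CLK2 overlaps HCN3 on the opposite strand and has the pseudogene CLK2P1.

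**Figure D1:**
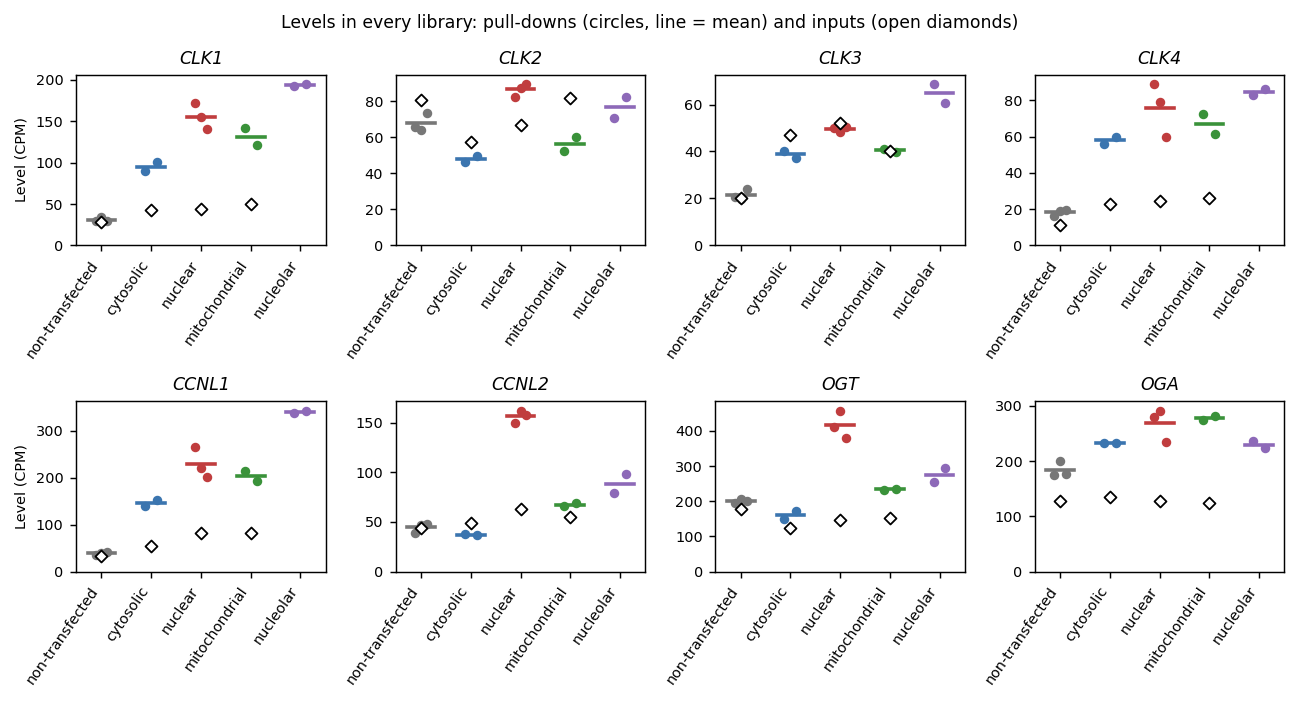
Level of each of the 8 genes in CPM (y axis, from 0, scaled to each gene) in each library, by the kind of cell (x axis). Filled circles are pull-down libraries with a line at their mean, and open diamonds are the single inputs. CLK1, CLK4 and CCNL1 pull-downs stand well above the inputs with cytosolic, nuclear and mitochondrial BS2. The CLK3 pull-downs lie near the inputs, furthest below with cytosolic BS2. CCNL2 and OGT peak with nuclear BS2, at 149 to 162 CPM and 381 to 458 CPM.

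The L cyclins behaved differently from each other. CCNL1 (chr3:157146508-157160760) stood at 35.5, 40.3 and 42.8 CPM in non-transfected, 139.8 and 152 CPM in cytosolic, 266, 222 and 201 CPM in nuclear, 215 and 192 CPM in mitochondrial, and 338 and 343 CPM in nucleolar pull-downs. It showed the order of CLK1 and CLK4, with the nucleolar libraries above all others. Its log2 changes were 1.86 ± 0.112 with cytosolic, 2.50 ± 0.100 with nuclear, 2.34 ± 0.112 with mitochondrial and 3.08 ± 0.112 with nucleolar BS2 (limma, adjusted p = 1.26e-08, 6.65e-11, 9.25e-10 and 1.92e-11). Each was the largest change of the 8 genes with that construct.

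CCNL2 (chr1:1385711-1399328) was highest with nuclear BS2. Its levels were 39.1, 46.5 and 47.9 CPM in non-transfected, 38.0 and 36.4 CPM in cytosolic, 149, 162 and 158 CPM in nuclear, 66.0 and 68.8 CPM in mitochondrial, and 78.8 and 98.3 CPM in nucleolar pull-downs. The nuclear libraries stood far above the nucleolar, these above the mitochondrial, and the cytosolic libraries lay at the bottom. The log2 change was 1.79 ± 0.0967 with nuclear, 0.97 ± 0.108 with nucleolar and 0.59 ± 0.108 with mitochondrial BS2 (limma, adjusted p = 1.42e-09, 1.99e-06 and 0.000332). With cytosolic BS2 it was -0.25 with a 95% interval of -0.48 to -0.02 (limma, adjusted p = 0.0702), which did not pass over all genes. CCNL2 has the pseudogene CCNL2P1.

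OGT (chrX:71533083-71575897) resembled CCNL2 rather than CLK1. It stood at 195, 205 and 201 CPM in non-transfected, 151 and 173 CPM in cytosolic, 412, 458 and 381 CPM in nuclear, 233 and 235 CPM in mitochondrial, and 255 and 294 CPM in nucleolar pull-downs. The nuclear libraries lay above every other library and the cytosolic ones below. The log2 change was 1.05 ± 0.0846 with nuclear and 0.45 ± 0.0945 with nucleolar BS2 (limma, adjusted p = 8.29e-08 and 0.000751). With mitochondrial BS2 it was 0.22 with a 95% interval of 0.02 to 0.43 (limma, adjusted p = 0.0580), which did not pass. OGT fell by 0.31 ± 0.0945 on the log2 scale with cytosolic BS2 (limma, adjusted p = 0.0145), and without cytosolic replicate 1 the change was -0.21 and no longer passed (limma, adjusted p = 0.197).

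OGA (chr10:101784443-101818465), which undoes the work of OGT, rose with every construct, by 0.32 to 0.60 on the log2 scale. Its levels were 174, 200.1 and 176 CPM in non-transfected, 233 and 233 CPM in cytosolic, 279.9, 292 and 234 CPM in nuclear, 275 and 282 CPM in mitochondrial, and 236 and 223 CPM in nucleolar pull-downs. All libraries with BS2 lay above the non-transfected ones, and the nuclear libraries overlapped with the mitochondrial and the nucleolar ones. The log2 changes were 0.35 ± 0.0958 with cytosolic, 0.54 ± 0.0857 with nuclear, 0.60 ± 0.0958 with mitochondrial and 0.32 ± 0.0958 with nucleolar BS2 (limma, adjusted p = 0.00808, 6.08e-05, 0.000105 and 0.00828). The cytosolic call was lost without cytosolic replicate 1 (limma, adjusted p = 0.0532) or replicate 2 (limma, adjusted p = 0.0539), and the nucleolar call without nucleolar replicate 1 (limma, adjusted p = 0.0727). Between constructs no difference of OGA passed as deposited, but with nucleolar against nuclear BS2 it was -0.42 under the common total and -0.46 under quantile scaling, and both passed (limma, adjusted p = 0.00192 and 0.000901), while median-of-ratios scaling gave -0.18 (limma, adjusted p = 0.178).

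Counted together, all 8 genes were higher with nuclear BS2 than without transfection, where 31.1% of all tested genes were called higher and 33.5% lower. With nucleolar BS2 7 were higher (all genes: 29.2% higher and 34.8% lower), with CLK2 not called. With mitochondrial BS2 6 were higher and 1 lower (27.8% and 26.4%), and with cytosolic BS2 5 were higher and 2 lower (27.9% and 22%). The median log2 change of the 8 genes was 1.48 with nuclear, 1.26 with nucleolar, 0.75 with mitochondrial and 0.59 with cytosolic BS2, beside -0.04, -0.09, -0.01 and 0.00 over all tested genes.

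The deposited CPM values carry the authors' normalization and do not add up to the same total in every library. They summed to 847391 to 914952 in the nuclear pull-downs and to 1.04e+06 to 1.10e+06 in the non-transfected ones. The nuclear comparisons moved with the scaling. Rescaling to a common total shifted the median log2 change of all genes with nuclear BS2 from -0.04 to 0.19, and the share of calls that were higher from 48.1% to 65.9%. The 8 genes remained called higher with nuclear BS2 under each scaling tried. Relative to the shifted median, the smallest change among them, that of CLK2 at 0.62 after rescaling, still lay above it.

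**Figure D2:**
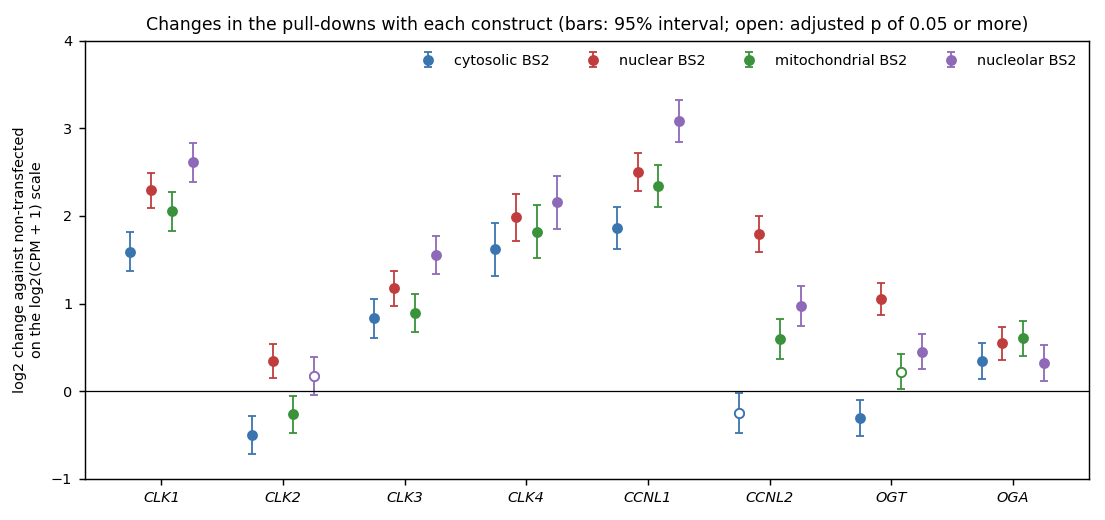
Log2 change against non-transfected pull-downs (y axis, log2(CPM + 1) scale) for each gene (x axis) and construct (colours), with 95% intervals as bars and open symbols where the adjusted p was 0.05 or more. CLK1, CLK4 and CCNL1 lie between 1.59 and 3.08 with all 4 constructs, whereas CCNL2 runs from -0.25 with cytosolic to 1.79 with nuclear BS2.

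Comparing constructs with each other leaves transfection on both sides. Between nuclear and cytosolic BS2, 6 of the 8 genes were higher with nuclear BS2 and 0 lower, where 9.84% of all genes were called higher and 22.2% lower. CCNL2 differed most, by 2.04 ± 0.108 on the log2 scale (limma, adjusted p = 2.67e-08), above 99.8% of all tested genes. OGT followed at 1.36 ± 0.0945 (limma, adjusted p = 6.71e-07), above 98.8% of genes. CLK2 was higher by 0.85 ± 0.101, CLK1 by 0.70 ± 0.106 and CCNL1 by 0.64 ± 0.112 (limma, adjusted p = 7.47e-05, 0.000386 and 0.000960).

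CLK3 was higher by 0.34 ± 0.103 (limma, adjusted p = 0.0205), a call lost without either cytosolic library (limma, adjusted p = 0.0699 and 0.174). The 2 genes not called were CLK4, at 0.36 with a 95% interval of 0.06 to 0.67 (limma, adjusted p = 0.0631), and OGA, at 0.20 with an interval of -0.01 to 0.40 (limma, adjusted p = 0.128). Both were called higher after rescaling to a common total, median-of-ratios scaling or quantile normalization, and without nuclear replicate 3, which gave 0.52 for CLK4 (limma, adjusted p = 0.00382). Rescaling to a common total moved the median of all genes in this comparison from -0.11 to 0.10 and the share of calls that were higher from 30.7% to 76.6%. After it CCNL2 stood at 2.29 and OGT at 1.60.

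**Figure D3:**
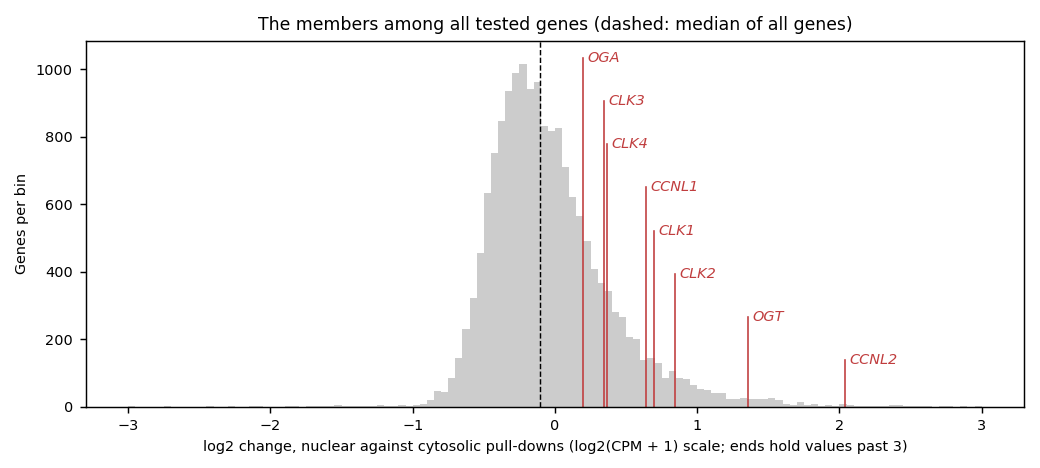
Histogram of the log2 change between nuclear and cytosolic pull-downs over all 16693 tested genes (x axis, log2(CPM + 1) scale; y axis, genes per bin), with a line at each of the 8 genes and a dashed line at the median of all genes, -0.11. All 8 lie above the median, CCNL2 at 2.04 and OGT at 1.36.

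Nucleolar BS2 gave a split among the 8 genes when set against nuclear BS2. CLK1, CLK3 and CCNL1 were higher with nucleolar BS2, by 0.32, 0.38 and 0.58 (limma, adjusted p = 0.0322, 0.0111 and 0.00129), and CCNL2 and OGT lower, at -0.82 and -0.60 (limma, adjusted p = 6.35e-05 and 0.000277). Of all tested genes 15.9% were called higher and 17.2% lower, beside 3 and 2 of the 8. CLK4 differed by 0.18 with an interval of -0.13 to 0.48, CLK2 by -0.18 with -0.39 to 0.04, and OGA by -0.22 with -0.42 to -0.01. After rescaling to a common total CLK2 stood at -0.37 and OGA at -0.42, and both passed as lower (limma, adjusted p = 0.0106 and 0.00192). The CLK1 call was lost after rescaling to a common total at 0.12, which moved the split of all calls from 48.0% to 23.4% higher, and after quantile normalization at 0.14. It was also lost without nuclear replicate 2 or 3 or either nucleolar library, at 0.24 to 0.33. The CLK3 call was lost after rescaling to a common total, at 0.18, and without nucleolar replicate 1, at 0.29.

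Against cytosolic BS2, 7 of the 8 genes were higher with nucleolar BS2 (all genes: 10.8% higher and 22.9% lower) and OGA differed by -0.02 with an interval of -0.24 to 0.20. CCNL1 and CCNL2 were both higher by 1.22, CLK1 by 1.02, OGT by 0.76, CLK3 by 0.72, CLK2 by 0.67 and CLK4 by 0.54, with adjusted p-values in limma from 1.10e-05 to 0.0156. The call of CLK4 was lost when any of the nucleolar or cytosolic libraries was left out. The share of all calls that were higher was 32.0%, and 53.5% after median-of-ratios scaling.

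Mitochondrial BS2 lay between cytosolic and nuclear BS2 for most of the 8 genes. Against cytosolic BS2, where 0.599% of all genes were called higher and 0.174% lower, CCNL2 was higher by 0.84 ± 0.118 and OGT by 0.53 ± 0.104 (limma, adjusted p = 0.00209 and 0.0258). MALAT1 and NEAT1 moved the same way, at 1516 against 518 CPM summed, and their part in the result was not tested. The OGT call was lost without any of the 4 libraries of that comparison, with adjusted p-values in limma of 0.0604 to 0.451. Against nuclear BS2, where 16.7% of genes were called higher and 9.36% lower, CCNL2 stood at -1.20, OGT at -0.83 and CLK2 at -0.61 (limma, adjusted p = 1.32e-05, 0.000119 and 0.00106). In that comparison the number of the 8 genes called was 3, and 7, 5 and 6 under the common total, median-of-ratios and quantile scalings, and the share of all calls that were higher went from 64.2% to 15.4% under the common total. Against mitochondrial BS2, 5 of the 8 were higher with nucleolar BS2 (all genes: 7.59% higher and 14.2% lower): CCNL1 by 0.74, CLK3 by 0.66, CLK1 by 0.56, CLK2 by 0.44 and CCNL2 by 0.38, of which the calls of CLK2 and CCNL2 were lost without 1 library, for example without nucleolar replicate 2 at 0.32 and 0.22. The share of all calls that were higher was 34.9%, and 57.3% after median-of-ratios scaling.

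The order of group means summarises these levels, with each step tested on the values as deposited. For CLK1, CLK3, CLK4 and CCNL1 it was nucleolar, nuclear, mitochondrial, cytosolic and non-transfected, from high to low. The step from cytosolic to non-transfected passed the test in each of these, and the nuclear, mitochondrial and cytosolic neighbours were not shown to differ in any. Under other scalings some did. Nuclear over mitochondrial passed for CLK1 and CLK3 under each other scaling. It also passed under the common total for CCNL1 and CLK4, and under quantile scaling for CCNL1. Mitochondrial over cytosolic passed under quantile scaling for CLK1 and CCNL1, and under the common total for CCNL1. The top step, nucleolar over nuclear, passed in CLK1, CLK3 and CCNL1 and not in CLK4. For CCNL2 and OGT the order was nuclear, nucleolar, mitochondrial, non-transfected and cytosolic, and in both the step from nuclear to nucleolar passed. CLK2 ran from nuclear over nucleolar and non-transfected to mitochondrial and cytosolic, and OGA had neighbours that were not shown to differ except nucleolar over non-transfected.

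Levels of different genes are set here per length of the principal transcript. Other transcripts differ in length, and whether intron reads were counted is not known, so the ranks below hold only for this length. In the non-transfected pull-downs OGT, OGA and CLK2 led with levels of 36.7, 35.6 and 35.1 CPM per kb, followed by CCNL2 at 19.3, CCNL1 at 16.6, CLK1 at 16.4, CLK3 at 11.6 and CLK4 at 7.12. In the nuclear pull-downs the levels were 96.2 CPM per kb for CCNL1, 82.5 for CLK1, 76.3 for OGT, 67.8 for CCNL2, 52.1 for OGA, 44.8 for CLK2, 29.6 for CLK4 and 26.8 for CLK3. CCNL1 and CLK1 thus moved from the fifth and the sixth place to the top of the 8 genes.

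The inputs, which had no pull-down, are compared here as single libraries without a test. Without transfection the input of CLK3 was 20.3 CPM, and with cytosolic, nuclear and mitochondrial BS2 it was 47.1, 52.0 and 40.1 CPM, log2 differences of 1.17, 1.31 and 0.95. In the same order CCNL1 went from 32.5 to 54.9, 82.9 and 82.9 CPM, and CLK4 from 11.1 to 22.7, 24.3 and 25.9 CPM. CLK1 went from 27.7 to 42.3, 43.5 and 50.1 CPM. On the log2(CPM + 1) scale CLK3, CLK4 and CCNL1 passed 2-fold in some inputs: CLK3 in the cytosolic, CLK3, CLK4 and CCNL1 in the nuclear, and CLK4 and CCNL1 in the mitochondrial inputs, beside 3.59%, 4.27% and 3.94% of all genes, and CLK1 in none.

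Of the other 4 genes none was more than 2-fold higher in an input on that scale. In that order CCNL2 inputs were 43.9, 49.0, 63.2 and 55.1 CPM, and OGA inputs 128, 135, 128 and 124 CPM. OGT began at 178 CPM without transfection and was lower with each construct, at 125, 146 and 153 CPM, and CLK2 gave 80.8, 57.5, 66.7 and 81.7 CPM. The rise of OGT with nuclear BS2 was thus seen in the pull-down and not in the input.

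Averaged over the 4 kinds of cells with an input, 6 of the 8 genes were higher in the pull-down than in the input and 1 lower (all genes: 39.7% and 32%). CLK4 was higher by 1.23 ± 0.0942, CLK1 by 1.12 ± 0.0698, CCNL1 by 1.10 ± 0.0736, OGA by 0.88 ± 0.0624, OGT by 0.66 ± 0.0615 and CCNL2 by 0.30 ± 0.0709 (limma, adjusted p from 7.11e-09 to 0.00147). CLK2 stood at -0.17 (limma, adjusted p = 0.0322), a call lost without any of 3 of the 12 pull-downs. CLK3 stood at -0.07 with a 95% interval of -0.21 to 0.08. Under median-of-ratios scaling CLK3 was at -0.15 and passed as lower (limma, adjusted p = 0.0417). The test assumes that the inputs vary like the pull-downs.

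The average hides a difference between the kinds of cells. In non-transfected cells the pull-down of CLK1 exceeded its input by 0.15 on the log2 scale, and with cytosolic, nuclear and mitochondrial BS2 by 1.15, 1.81 and 1.37. CCNL1 went from 0.27 to 1.39, 1.45 and 1.28. CCNL2 stood at 0.02 in non-transfected cells and at -0.39, 1.29 and 0.29 with the constructs, and OGT at 0.17, 0.36, 1.50 and 0.61, so that both were enriched mainly with nuclear BS2. CLK3 stood at 0.07, -0.28, -0.07 and 0.01. With cytosolic BS2 both of its pull-downs lay below the input, at -0.33 and -0.23, and in the other kinds of cells it was close to its input. CLK4 and OGA exceeded the input even without BS2, by 0.66 and 0.52.

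**Figure D4:**
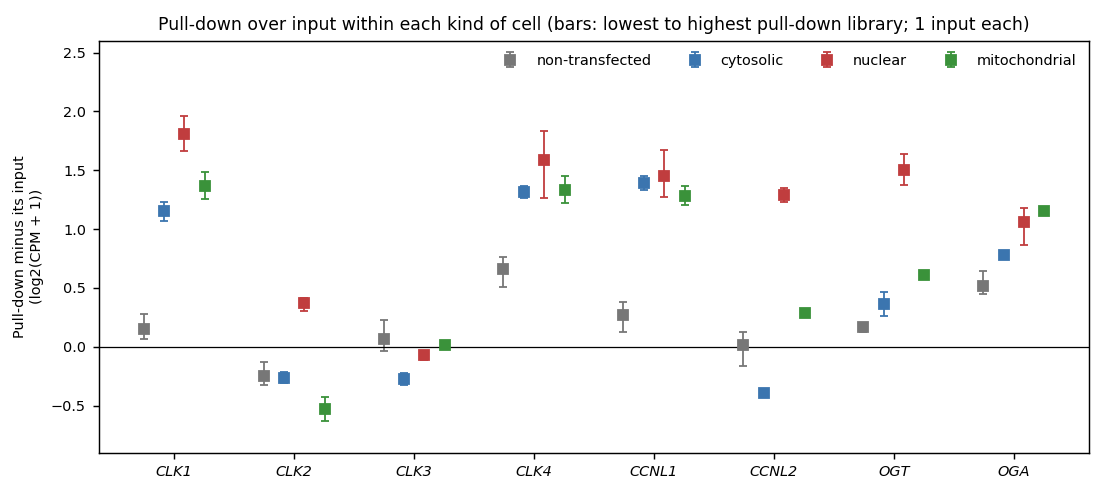
Pull-down minus input (y axis, difference of log2(CPM + 1)) for each gene (x axis) in non-transfected cells and with cytosolic, nuclear and mitochondrial BS2 (colours). Squares are means and bars run from the lowest to the highest pull-down library against the 1 input. CLK3 runs from -0.28 with cytosolic BS2 to 0.07 in non-transfected cells, and CCNL2 and OGT reach 1.29 and 1.50 with nuclear BS2.

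Taking the input difference away from the pull-down difference gave an input-corrected change against non-transfected cells. Each input is 1 library, so these p-values rest on the assumption that inputs vary like the pull-downs, which the data could not check. With nuclear BS2 7 of the 8 genes were higher, where 7.63% of all genes were higher and 8.94% lower: CLK1 by 1.66 ± 0.192, OGT by 1.33 ± 0.169, CCNL2 by 1.28 ± 0.195, CCNL1 by 1.18 ± 0.202, CLK4 by 0.92 ± 0.258, CLK2 by 0.62 ± 0.180 and OGA by 0.54 ± 0.171. The adjusted p-values in limma were 0.000211, 0.000367, 0.000997, 0.00205, 0.0265, 0.0312 and 0.0448 in that order. The last 3 calls were lost without non-transfected replicate 1 or nuclear replicate 2 (OGA also without most other libraries), which left 4 genes called. CLK3 stood at -0.14 with a 95% interval of -0.53 to 0.26. The share of all calls that were higher was 46.0%, and 73.0% after rescaling to a common total, which left 7 genes called.

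With cytosolic BS2 2 of the 8 were higher after this correction (all genes: 5.74% higher and 2.77% lower): CLK1 by 1.00 ± 0.198 and CCNL1 by 1.12 ± 0.208 (limma, adjusted p = 0.00988 and 0.00765). The CLK1 call was lost without cytosolic replicate 2, at 0.92 (limma, adjusted p = 0.0519). With mitochondrial BS2 3 were higher (all genes: 6.16% higher and 3.4% lower): CLK1 by 1.22 ± 0.198, CCNL1 by 1.01 ± 0.208 and OGA by 0.64 ± 0.176 (limma, adjusted p = 0.00370, 0.0111 and 0.0373), and the OGA call was lost without any of 8 of the 12 pull-downs. CLK3, which rose with each construct in the pull-downs alone, was at -0.34 and -0.06 with intervals of -0.75 to 0.06 and -0.46 to 0.35, so a rise beyond the input was not shown for it. Under quantile scaling the cytosolic value of CLK3 was -0.55 and passed as lower (limma, adjusted p = 0.0499).

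Other mRNAs known for detained or retained introns, a list of 18 written from general knowledge, mostly moved in the direction of the 8 genes. The list was chosen with earlier results of these data known, so it gives no independent support. With nuclear BS2 14 of 18 rose and 0 fell against non-transfected, with a median log2 change of 0.76 beside -0.04 over all genes, of which 31.1% were called higher and 33.5% lower. NKTR, a cyclophilin-like protein with an RS domain, rose by 1.87 ± 0.0923, RSRP1 by 1.63 ± 0.0869, MDM4, an inhibitor of p53, by 1.59 ± 0.110, and PRPF38B, a splicing factor, by 1.37 ± 0.0953 (limma, adjusted p from 5.92e-10 to 1.89e-08). Between nuclear and cytosolic BS2 8 of 18 were higher and 0 lower (all genes: 9.84% and 22.2%), and with cytosolic BS2 against non-transfected 10 were higher and 2 lower (all genes: 27.9% and 22%).

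RSRP1 and MDM4 were higher with nuclear than with cytosolic BS2, by 1.62 and 1.14 (limma, adjusted p = 1.23e-07 and 3.34e-05), as CCNL2 and OGT were. NKTR and PRPF38B differed by 0.07 and -0.12 between these constructs (limma, adjusted p = 0.624 and 0.426) and rose by 1.79 and 1.49 with cytosolic BS2 against non-transfected. PRPF38B was higher with nucleolar than with nuclear BS2 by 1.14 (limma, adjusted p = 3.08e-06), as CCNL1 was. SRSF5, SRSF7 and TRA2A are in this list and in that of the SR proteins.

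Of the 14 SR proteins, substrates of the CLK kinases, 8 rose and 1 fell with nuclear BS2 (all genes: 31.1% and 33.5%), with a median of 0.28. SRSF6 rose by 0.95, SRSF11 by 0.86 and SRSF4 by 0.81, and SRSF9 fell by 0.57 on the log2 scale (limma, adjusted p from 5.88e-08 to 0.000108). Between nuclear and cytosolic BS2 1 was higher and 4 were lower, close to the shares over all genes, 9.84% and 22.2%. With cytosolic BS2 against non-transfected 7 rose and 2 fell (all genes: 27.9% and 22%), with a median of 0.36.

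Of the other kinases of SR proteins and of the DYRK and HIPK families, relatives of the CLK kinases, 7 of 12 tested rose and 3 fell with nuclear BS2 (all genes: 31.1% and 33.5%). DYRK1B rose by 1.18, DYRK1A by 1.11 and PRPF4B, a kinase bound to the spliceosome, by 0.92 (limma, adjusted p from 8.98e-08 to 1.34e-06), and HIPK4 went from a mean of 0.104 to 2.26 CPM, near the filter. Between nuclear and cytosolic BS2 0 of the 12 were higher and 3 lower, close to the shares over all genes, 9.84% and 22.2%. Cytosolic BS2 against non-transfected gave 8 higher and 0 lower (all genes: 27.9% and 22%).

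Of 16 kinases and cyclins of transcription and splicing, 9 rose and 0 fell with nuclear BS2 (all genes: 31.1% and 33.5%). CDK11A, a partner of the L cyclins with a near-identical copy in CDK11B, rose by 1.14, CDK10 by 1.08, CCNT2 by 0.99 and CCNT1, a subunit of the elongation factor P-TEFb, by 0.67 (limma, adjusted p from 1.54e-07 to 0.000115). CDK11A reached 2.09 with nucleolar BS2 (limma, adjusted p = 9.12e-10). CDK11B stood at 0.13 with nuclear BS2. How the authors' counting divided reads that match both copies is not given in the sources used here. Between nuclear and cytosolic BS2 2 of the 16 were higher and 6 lower (all genes: 9.84% and 22.2%). Cytosolic BS2 against non-transfected gave 12 higher and 0 lower (all genes: 27.9% and 22%).

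A list of 13 genes of the hexosamine pathway held enzymes that make, salvage or break down amino sugars on the way to UDP-N-acetylglucosamine, the donor used by OGT, with the transporter SLC35A3 and the transferase EOGT. Of these 4 rose and 3 fell with nuclear BS2, close to the shares over all genes of 31.1% and 33.5%, with a median of 0.01. UAP1L1 rose by 1.92, NAGK, the kinase that salvages N-acetylglucosamine, by 0.98, RENBP by 0.97 and AMDHD2 by 0.96 (limma, adjusted p from 7.97e-08 to 0.000672). NAGK fell by 0.74 on the log2 scale with cytosolic BS2 and was higher by 1.72 with nuclear than with cytosolic BS2 (limma, adjusted p = 0.000547 and 2.52e-06). In both comparisons its direction was that of OGT. The 2 genes parted with nucleolar BS2 against non-transfected, where NAGK stood at -0.37 (limma, adjusted p = 0.0321) and OGT at 0.45. With mitochondrial BS2 they stood at -0.09 and 0.22, and neither passed.

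**Figure D5:**
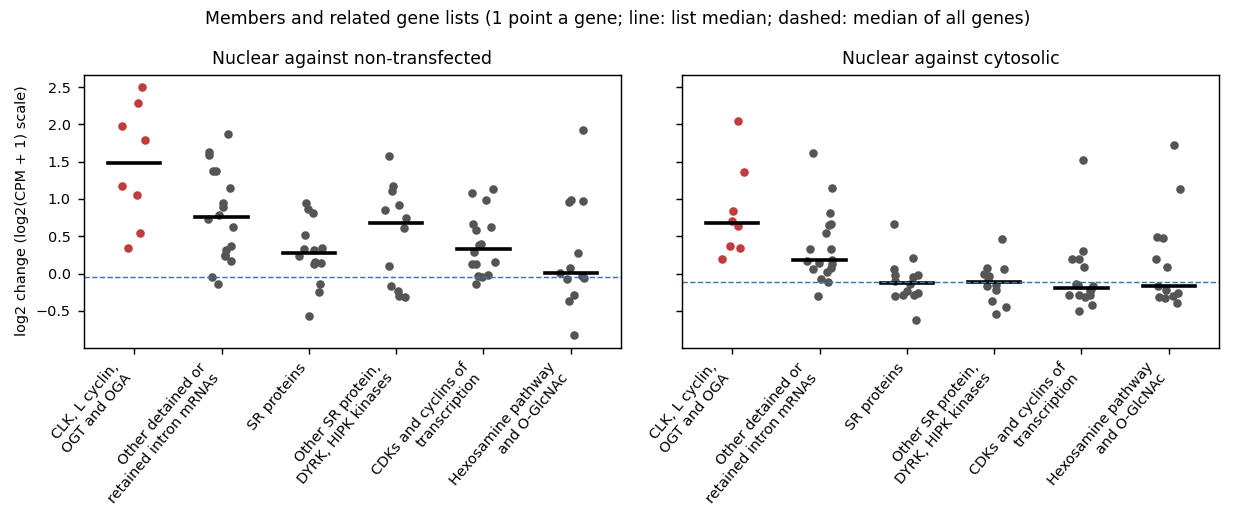
Log2 change (y axis, log2(CPM + 1) scale) with nuclear BS2 against non-transfected (left) and against cytosolic BS2 (right), with 1 point a gene for the 8 genes (red) and 5 related lists (grey). Black lines are medians and the dashed line is the median of all tested genes. The 8 genes have medians of 1.48 and 0.67, and the other detained or retained intron mRNAs of 0.76 and 0.18.

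The genes with the most similar pattern were sought among 11460 genes with a mean of at least 5 CPM, by Pearson's r of log2(CPM + 1) over the 12 pull-downs. These r values are descriptions, since the libraries fall into 5 groups and share their scaling. For CCNL1 the highest were ZNF75A, RGL1 and CCDC150, at 0.997, 0.994 and 0.993, and for CLK1 they were FAS, FBXW7 and ZNF75A, at 0.996, 0.996 and 0.993. CLK4 was closest to LINS1, ARID5B and FBXW7, at 0.995, 0.993 and 0.992, so that CLK1 shares ZNF75A with CCNL1 and FBXW7 with CLK4. CLK3 was closest to ZNF263, PSMC3IP and PSRC1, at 0.993, 0.985 and 0.984.

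For CCNL2 the closest genes were TTLL3, RAMP2-AS1 and RSRP1, at 0.992, 0.987 and 0.976, and for OGT they were DCAF8, RAMP2-AS1 and DMAP1, at 0.976, 0.973 and 0.965. RAMP2-AS1 is thus shared by CCNL2 and OGT, and RSRP1 is on the list of retained-intron mRNAs. CLK2 was closest to EME1, SNHG10 and MIR503HG, at 0.963, 0.961 and 0.958, and OGA to TRPC1, DPP8 and ZNF286A, at 0.963, 0.961 and 0.960.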

How the data were processed

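The deposited values are log2 CPM: per the labels, the authors filtered them and normalized them by TMM, and the lowest value, -2.59, is the same in every library. CPM was taken as 2 to the deposited value minus the constant this implies, 0.166. Per the submitters' processing notes, STAR 2.7.9a, Salmon 1.4.0 and limma were used with GRCh38, without a role for each. The annotation release, the use of strand and whether intron reads were counted are not given in the sources used here. Of 39823 table entries 24917 hold values, and 24878 distinct genes were kept. Between 69.1% and 84.2% of values were whole multiples of 1 read (tolerance 0.01), too few for a count test.

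Groups follow the labels. Replicates are labelled biological, but no separate cultures are named, so a p-value here reflects only how these libraries spread, which may be technical. The fit took genes that reached 1 CPM in 2 or more libraries, as log2(CPM + 1), pseudocount 1, in limma 3.58.1 (trend on) in R 4.3.3, on the 12 pull-downs, or on all 16 libraries where inputs enter. For the single inputs the spread of the pull-downs was assumed. Benjamini-Hochberg adjusted p-values cover all genes, with a threshold of 0.05, in 14 comparisons. The fit was tested on simulated data for the comparisons of each construct with non-transfected pull-downs. These data had normal noise, few changed genes, no shift of scaling and no inputs, so those conditions were not tested.

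The 8 genes are always named. From each related list up to 4 genes are named, those with the largest change with nuclear BS2 against non-transfected among genes that passed. The value of CDK11B is given in addition, as the copy of CDK11A. For similarity, the 3 genes with the highest correlation are named. The 8 genes and the lists were chosen with earlier results of these data known. GENCODE 29 (GRCh38) gave the gene structures, matched on gene identifiers without their version, and coordinates count from 1. Exons were aligned with Biopython 1.88. Alternatives were 3 other scalings, a pseudocount of 0.5, the deposited log2 values as they are, no filter or a filter at 5 CPM, no variance trend, the replicate number as a block, all 16 libraries in the fit, and each pull-down library left out in turn.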

Additional observations from a re-analysis of the deposited data

Results flagged for a closer look

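In 12 cases the change from input to pull-down differed between cells with a construct and non-transfected cells by the test of that difference (limma over all 16 libraries, adjusted p under 0.05). With 1 input a group, the test assumes that inputs vary like the pull-downs. On the log2 scale, CLK1 had the larger pull-down over input with cytosolic (by 1.00), nuclear (by 1.66) and mitochondrial BS2 (by 1.22). CCNL1 did so with the same constructs, by 1.12, 1.18 and 1.01. With nuclear BS2 it was also larger for OGT by 1.33, CCNL2 by 1.28, CLK4 by 0.92, CLK2 by 0.62 and OGA by 0.54, and with mitochondrial BS2 for OGA by 0.64. All 12 were in the direction of more pull-down with the construct, as were 7.63% of all genes with nuclear, 6.16% with mitochondrial and 5.74% with cytosolic BS2. Each nuclear value rests on the same 2 inputs, and how inputs of one kind vary was not measured here.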

How the results depend on the processing

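Over the 8 genes and 14 comparisons, 992 of 1056 values under other settings and 1267 of 1344 without 1 library kept their direction and side of the threshold. These totals include refits close to the main fit. The pseudocount of 0.5 and the deposited log2 values kept 112 of 112, and all 16 libraries in the fit 80 of 80. The common total kept 93 of 112, quantile scaling 98 and median-of-ratios scaling 102. Leaving out a library of neither compared pull-down group could move only the p-value. The calls of the 8 genes with nuclear BS2 against non-transfected held under every setting tried. Changes of sign were confined to values that had not passed. For OGA between nucleolar and cytosolic BS2 (-0.02) they were 0.027 under the common total, 0.13 under median-of-ratios and 0.088 under quantile scaling, and the values without 1 library ran from -0.059 to 0.019. For OGA between mitochondrial and nuclear BS2 (0.06) they were -0.21, -0.013 and -0.24 under these scalings and -0.0044 with the replicate block, and ran from -0.037 to 0.12 without 1 library. Under the common total, CLK4 between nucleolar and nuclear BS2 (0.18) became -0.021 and the input-corrected nuclear CLK3 (-0.14) became 0.052. Without 1 library the input-corrected cytosolic CLK2 ran from -0.063 to 0.046 and the input-corrected mitochondrial CLK3 from -0.11 to 0.024.

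The number of the 8 genes called between mitochondrial and cytosolic BS2 was 2, but 4 under quantile scaling, 1 without the filter and 1 without the variance trend. It was 1 without either cytosolic or either mitochondrial library and 4 without nuclear replicate 1 or 3. Between mitochondrial and nuclear BS2 it was 3, but 7, 5 and 6 under the common total, median-of-ratios and quantile scaling. Input-corrected with nuclear BS2 it was 7, but 4 without the variance trend, and 4 to 7 without 1 library. Input-corrected with cytosolic BS2 it ran from 1 to 3 without 1 library. Between nucleolar and mitochondrial BS2 it was 5 and ran from 3 (without mitochondrial replicate 1 or nucleolar replicate 2) to 7, and between nucleolar and nuclear BS2 it was 5 and ran from 3 (without nucleolar replicate 1) to 5. The cause of these changes was not tested.

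The deviations of same-numbered libraries of different groups were weakly correlated (r from -0.163 to 0.155 in 21 pairs, over 0.1 in 3). In groups of 2 libraries the deviations mirror each other, so these pairs are not separate checks. Whether the numbers pair the libraries was thus not settled. In the labels each pull-down also has a code that ends in its replicate number, except the cytosolic ones, whose codes run 1 higher. What the codes mark is not given in the sources used here, and a block by code was not fitted. With the replicate block 73 of 80 pull-down values kept their call, 1 lost it, 5 gained it and 1 changed sign, and the calls over all genes between mitochondrial and cytosolic BS2 went from 129 (100 higher, 29 lower) to 426 (156 higher, 270 lower). The block was not fitted for comparisons with inputs, whose labels name no biological replicate. The lowest level of the 8 genes stood on 122 reads, a counting error of 9.05%, beside a median coefficient of variation between replicates of 7.86%.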
